A study of Homo sapiens with 6 samples.

Results

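T47D is a human luminal breast cancer cell line that expresses the estrogen and progesterone receptors. mRNA was sequenced from 3 libraries of cells kept at 20% O2 (normoxia) and 3 libraries of cells kept in hypoxia, which the labels give as 0.5% O2 for 48 h. The results text of the paper gives another O2 level for this culture. The cells carried no engineered allele and no other agent, and all values come from this 1 line. The paper describes its data as independent experiments, but the labels do not say that the replicates were separate cultures, so p-values measure only the spread between these libraries. The question asked here is how 10 transcription factors and early response genes differed between hypoxia and normoxia. They are FOS, FOSB, FOSL1, FOSL2, JUN, JUNB, JUND, ATF3, EGR1 and IER3, matched by symbol among the 27754 genes of the count tables. All 10 were found and all 10 passed the filter on low counts, FOSL1 and FOSB at low counts.

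Activator protein 1 (AP-1) is a dimer of basic leucine zipper (bZIP) proteins. FOS, FOSB, FOSL1 and FOSL2 bind DNA only with a partner, usually JUN, JUNB or JUND, whereas JUN proteins can also pair with themselves. ATF3 is a stress-induced bZIP factor that pairs with JUN proteins. EGR1 is a zinc finger factor that shares the serum response with FOS, and both are classical targets of serum response factor and MAP kinases. Immediate early genes need no new protein synthesis for their first transcription, and their RNAs are usually short-lived. IER3 is an early response gene whose product acts in apoptosis and signalling and is not known as a DNA-binding factor. In breast cancer cells, FOSL1 is known mainly from basal-like and mesenchymal lines.

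The promoters of these genes are shown first, since some of the 10 genes are known to be regulated by the same factors they encode. Windows from 250 bases before to 50 bases after the start site were taken from RefSeq and matched without a mismatch to GRCh37, the build of the counts. Of the 10 genes, 8 were in the RefSeq table, and FOSL1 and IER3 were not. In the following windows, capitals mark the letters searched for, on either strand, and positions count the first transcribed base as 0. The RefSeq start sites are not always the gene starts of the annotation used for counting.
JUN, cAMP response element at -67: gccttggggTGACATCAtgggctatt
ATF3, cAMP response element at -123: cctatgataTGACATCAtatggccac
JUND, cAMP response element at -200: ccgcccccaTGACGTCAacccacaag
ATF3, C/EBP-ATF response element at -191: aggtcaggaTGATGGAAggctgtcat
FOSL2, TPA response element at 4: gccattgtagTGACTCAtctcgggca
EGR1, CArG box at -105: cggtcctgCCATATTAGGgcttcctg
EGR1, CArG box at -83: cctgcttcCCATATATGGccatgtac

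In GRCh37 these windows lie at chr1:59249770-59249795 (minus strand) for JUN, and at chr1:212738617-212738642 and chr1:212738549-212738574 (plus strand) for ATF3. The JUND window is chr19:18392616-18392641 (minus strand) and the FOSL2 window chr2:28615719-28615744 (plus strand). The EGR1 windows are chr5:137801055-137801080 and chr5:137801077-137801102 (plus strand). JUN and ATF3 carried the same letters, TGACATCA, a variant of the cAMP response element that AP-1 and ATF dimers are known to bind. That element, searched as TGACNTCA, was in 3 of the 8 promoters and in 7.72% of the 35116 RefSeq promoter windows of the same length. TGATGNAA, the form bound by ATF4 with C/EBP partners, was in 1 of 8 and in 3.62% of all. TGANTCA, the classical AP-1 site, was in 1 of 8 and in 7.71% of all. The CArG box, bound by serum response factor, was in 1 of 8 and in 1.29% of all. Elements outside the windows, in FOS or in the other genes, were not searched for. The core of the hypoxia response element (ACGTG or GCGTG) was in 6 of 8 promoters and in 48.4% of all, and the promoters without it were those of JUND and ATF3. No match overlapped a match of another motif. A match is a description of the letters, and the counts below do not measure binding.

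In hypoxia, 5 of the 10 genes rose: FOS, JUN, JUNB, ATF3 and FOSL2. Their folds ran from 1.91 for FOSL2 to 9.27 for FOS, and 0 of the 10 fell. JUND, IER3, EGR1, FOSB and FOSL1 did not pass the test, which did not use the replicate numbers. With the replicate number as a block JUND and IER3 also passed, beside 36.6% of all genes called higher. Calls used edgeR's quasi-likelihood test with Benjamini-Hochberg adjustment at 0.05 over all 15657 genes tested, among which 30.4% were called higher and 29.1% lower. Scaling by upper-quartile factors moved the median of all genes by 0.16 (log2) and the calls from 4765 higher and 4551 lower to 5972 and 3285, and the same 5 genes and JUND then rose. Expression is given in CPM, counts scaled to library size. The 3 hypoxia libraries lay above the 3 normoxia libraries for the same 5 genes, a pattern that 34.9% of all genes tested also had. The median log2-fold change was 1.05 over the 10 genes and 0.03 over all genes tested. In RNA from whole cultures, a change in every cell and a change in the number of expressing cells cannot be told apart.

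**Figure D1:**
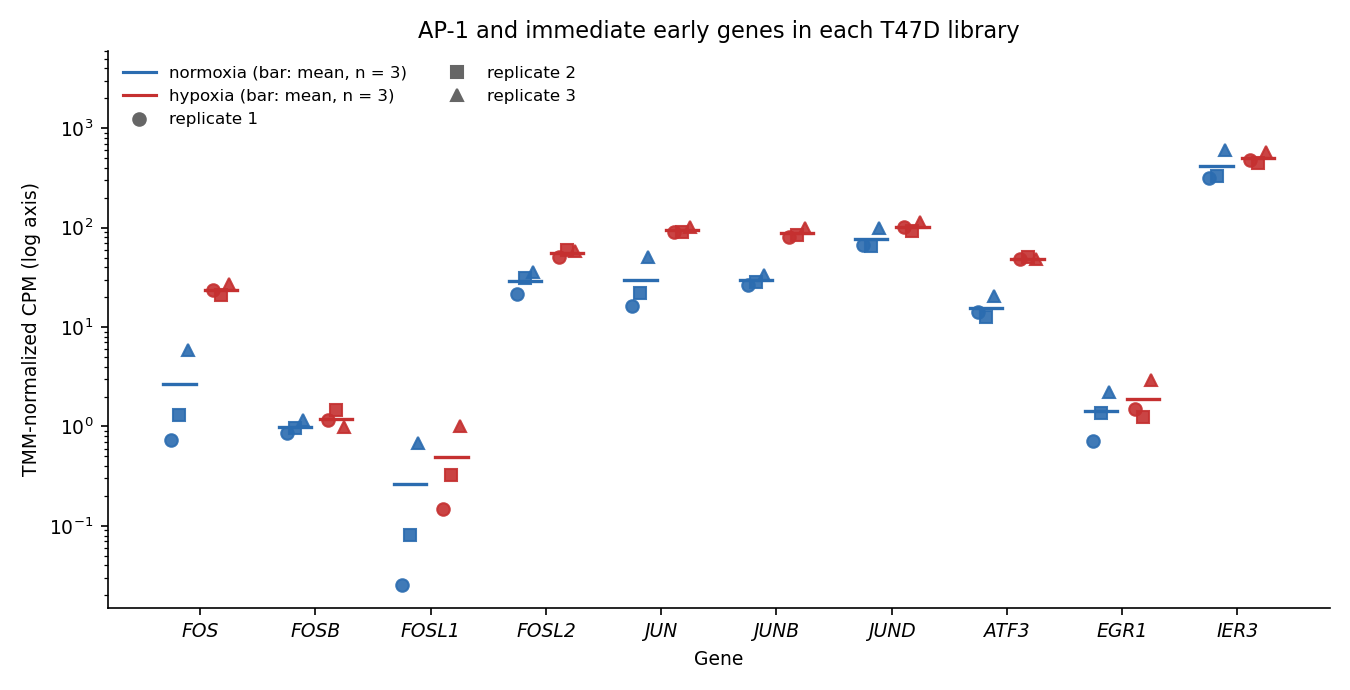
TMM-normalized CPM (log axis) of the 10 genes in each library; blue is normoxia and red hypoxia, the marker shape gives the replicate number, and bars are means of 3 libraries. The hypoxia libraries lie above all normoxia libraries for FOS, FOSL2, JUN, JUNB and ATF3, and the groups overlap for the other 5 genes.

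Library totals ran from 32989104 to 89883409 counts, the largest being hypoxia replicate 3, so that 3 counts corresponded to 0.0328 to 0.0969 CPM. All 12 luminal markers were present, with summed levels of 15810 to 19784 CPM in normoxia and 11287 to 14366 CPM in hypoxia. Without the replicate block, 6 of them were called lower and 1 higher, beside 29.1% and 30.4% of all genes tested. KRT8, KRT18, KRT19, EPCAM and CDH1 were not called in that fit. With the block, 8 were called lower and 2 higher, beside 35.2% and 36.6%. ESR1 fell from 271.4 ± 26.4 to 74.6 ± 0.598 CPM and PGR from 1249 ± 298.1 to 164.0 ± 28.9 CPM, and the part of these changes in the values below was not tested. Of 7 fibroblast markers, only COL1A1 exceeded 28 counts in any library, and POSTN was at 0. Only 2 of the 7 could be tested, and 1, PDGFRB, was called higher (edgeR adjusted p = 0.00624). It had 0, 0 and 3 counts in normoxia and 14, 18 and 28 in hypoxia. The replicate 3 libraries stood apart from the others in both conditions. The summed counts of VIM, MSN, CAV1 and CAV2, 4 genes of mesenchymal and basal-like cells chosen after their values were seen, were 8, 15 and 507 in normoxia replicates 1 to 3 and 71, 64 and 1405 in hypoxia. Of all 15 mesenchymal and basal-like markers, normoxia replicate 3 was the highest normoxia library for 8 (53.3%). Replicate 3 was the highest in both conditions for 7 (46.7%), whereas it was the lowest in both for CD44 and TP63. Normoxia replicate 3 was also the highest normoxia library for 10 of the 10 genes, against 40.8% of all genes tested. Replicate 3 was the highest library in both conditions for 7 of the 10, all but FOSB, FOSL2 and ATF3, against 29.1% of all genes tested. Of the whole list of 15 mesenchymal and basal-like markers, 12 could be tested. With the replicate block 7 were called higher and 1 lower, beside 36.6% and 35.2% of all genes. Without it 5 were called higher and 1 lower, beside 30.4% and 29.1% of all genes. The 5 were ANXA1 (2.16 ± 0.990 to 26.7 ± 4.58 CPM), AXL (3.48 ± 0.820 to 13.6 ± 2.20 CPM), EMP3, GLIPR1 and SRGN, and KRT14 was at or near 0. The list summed to 492.4 to 497.3 CPM in normoxia and 402.0 to 461.1 CPM in hypoxia, a sum held mostly by GNG11, LGALS1 and CD44, of which GNG11 fell from 233.2 ± 11.2 to 70.7 ± 10.6 CPM. The part of the mesenchymal transcripts in these levels was not tested, and the results that turn on replicate 3 are given with and without it.

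FOS, the founding member of its family, lies at chr14:75745481-75748937 on the plus strand. The FOS counts of replicates 1, 2 and 3 were 29, 49 and 182 in normoxia and 955, 762 and 2456 in hypoxia. In CPM these were 0.735, 1.32 and 5.88 against 23.6, 20.8 and 26.9. Every hypoxia library was above every normoxia library, and the hypoxia libraries lay close together while the normoxia libraries were spread. The mean was 2.64 ± 2.82 CPM in normoxia and 23.8 ± 3.02 CPM in hypoxia (SD, n = 3 each), and FOS rose by 3.21 on the log2 scale (SE 0.62, edgeR adjusted p = 0.00295). The size depended on normoxia replicate 3. The log2-fold changes within replicate numbers 1, 2 and 3 were 5.00, 3.98 and 2.19, and the fitted value without normoxia replicate 3 was 4.54. Over 15 alternative fits, which include leaving out each library, the log2-fold change of FOS stayed between 2.73 and 4.54, and all 15 passed the test.

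FOSL2, also called FRA2, was the most abundant FOS family member in both conditions. The gene lies at chr2:28615779-28637516 on the plus strand. Its levels were 21.4, 30.8 and 35.6 CPM in normoxia and 50.9, 59.3 and 57.7 CPM in hypoxia, with no overlap. FOSL2 rose by a log2-fold change of 0.94 (SE 0.17, edgeR adjusted p = 0.00259), from a mean of 29.3 ± 7.24 to 55.9 ± 4.46 CPM. Its promoter window holds the AP-1 site shown above, which lies after the start site given by RefSeq but before the first base of the gene in the annotation used for counting.

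FOSB and FOSL1 were scarce. FOSB, the closest relative of FOS, lies at chr19:45971253-45978437 on the plus strand. It had 34, 36 and 36 counts in normoxia and 47, 53 and 90 in hypoxia, which in CPM were 0.861, 0.967 and 1.16 against 1.16, 1.45 and 0.985. The groups overlapped, since hypoxia replicate 3 was below normoxia replicate 3. The log2-fold change was 0.25 with a 95% interval from -0.32 to 0.83 (edgeR adjusted p = 0.406).

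FOSL1, or FRA1, lies at chr11:65659607-65667997 on the minus strand. It had 1, 3 and 21 counts in normoxia and 6, 12 and 93 in hypoxia. The replicate 3 libraries were the highest in each condition, and normoxia replicate 3, at 0.678 CPM, exceeded hypoxia replicates 1 and 2, at 0.148 and 0.328 CPM. The log2-fold change was 1.16 with an interval from -1.12 to 3.44 (edgeR adjusted p = 0.338), wide enough to hold a decrease. It turned on single libraries: the value was 3.33 and passed the test without normoxia replicate 3, and was -0.04 without hypoxia replicate 3. VIM was likewise highest in replicate 3 within each condition, with 7, 12 and 395 counts in normoxia and 35, 35 and 1001 in hypoxia. In CPM these were 0.177, 0.322 and 12.8 against 0.865, 0.957 and 10.95. The highest library of all was thus normoxia replicate 3 for VIM, but hypoxia replicate 3 for FOSL1, at 1.02 CPM. Whether the 2 transcripts came from the same cells was not tested.

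The FOS family was also compared by the share of each gene in the family's summed level. Levels were divided by exon length (RPKM) so that genes could be compared. FOSL2 made up 90.2, 89.4 and 72.3% of the summed FOS family level in normoxia and 53.0, 59.2 and 52.1% in hypoxia. FOS made up 5.73, 7.06 and 22.1% in normoxia and 45.4, 38.5 and 44.9% in hypoxia. Neither share overlapped between the groups. The mean share of FOS went from 11.6 ± 9.08% to 42.9 ± 3.85% while that of FOSL2 went from 84.0 ± 10.1% to 54.8 ± 3.90% (each exact two-sided permutation p = 0.1, the smallest that 3 against 3 allows; 0.113 after adjustment over the 9 shares and sums compared). FOSB and FOSL1 together made up little of the sum in either condition, with mean shares of 3.10 and 1.30% in normoxia and 1.25 and 1.06% in hypoxia. The summed level was 8.97 ± 3.21 RPKM in normoxia and 25.6 ± 1.90 RPKM in hypoxia, a ratio of 2.86.

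JUN, the main partner of FOS proteins, is an intronless gene at chr1:59246463-59249785 on the minus strand. Its levels were 16.1, 22.2 and 50.3 CPM in normoxia and 89.8, 90.7 and 102.1 CPM in hypoxia. All hypoxia libraries were above all normoxia libraries, and as for FOS the normoxia replicates were the ones that differed. With means of 29.5 ± 18.3 and 94.2 ± 6.86 CPM, JUN rose by 1.68 on the log2 scale (SE 0.37, edgeR adjusted p = 0.00547). Within replicate numbers the log2-fold changes were 2.48, 2.03 and 1.02, the last being that of replicate 3. The fitted value was 2.30 without normoxia replicate 3, and all 15 alternative fits passed the test.

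JUNB, which pairs with FOS proteins but is a weaker activator than JUN at many sites, gave the most even response of the 10 genes across replicate numbers. It is intronless and lies at chr19:12902310-12904125 on the plus strand. Normoxia libraries had 26.5, 28.4 and 33.4 CPM and hypoxia libraries 81.0, 84.2 and 98.7 CPM. The groups lay far apart, and the log2-fold changes within replicate numbers were close to each other at 1.61, 1.57 and 1.56. JUNB rose by 1.58 on the log2 scale (SE 0.12, edgeR adjusted p = 7.04e-05). In GENCODE, 259 of its exon bases overlap HOOK2 on the other strand, and the strand setting of the counting is not given in the sources used here.

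JUND, commonly described as the steadily expressed JUN protein, was the most abundant of the family in normoxia. The intronless gene lies at chr19:18390504-18392466 on the minus strand. It had 67.5, 64.5 and 98.4 CPM in normoxia and 100.7, 93.1 and 112.8 CPM in hypoxia. Normoxia replicate 3 lay above hypoxia replicate 2, so the groups overlapped, although each hypoxia library was above the normoxia library of the same number. The log2-fold change was 0.41 (95% interval 0.03 to 0.79) and missed the threshold (edgeR adjusted p = 0.0594). Blocking on the replicate number gave 0.43 (SE 0.0795), which passed (edgeR adjusted p = 0.00150). That fit called 7 of the 10 genes, JUND and IER3 besides the 5, and called 36.6% of all genes higher and 35.2% lower.

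**Figure D2:**
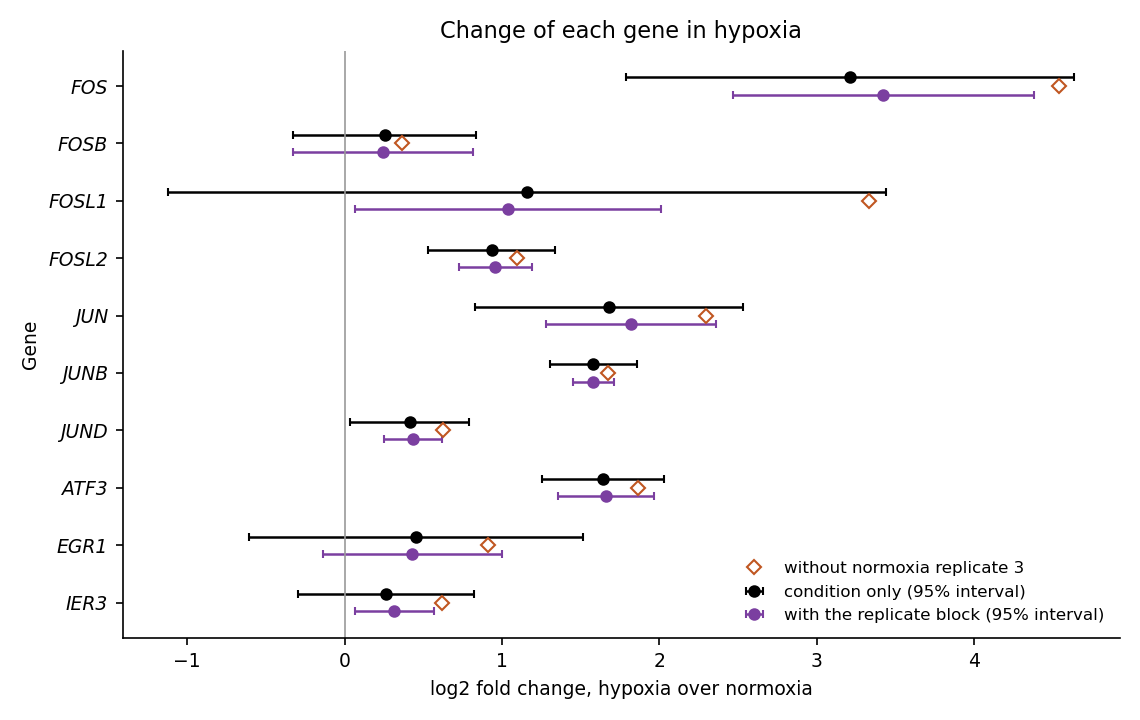
Log2-fold change of each gene in hypoxia over normoxia with its 95% interval, from the fit on condition only (black) and the fit with the replicate block (purple); open diamonds are the values without normoxia replicate 3. Without the block the interval of FOS runs from 1.79 to 4.64 and that of JUNB from 1.31 to 1.86, and those of FOSB, FOSL1, EGR1 and IER3 cross 0; without normoxia replicate 3, FOS is at 4.54 and FOSL1 at 3.33.

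In the JUN family the shares of the members lay apart as well. Per exon length, JUND made up 61.1 ± 2.42% of the summed level in normoxia and 40.4 ± 1.28% in hypoxia. JUNB went from 25.8 ± 3.37% to 37.6 ± 1.12%, and JUN from 13.1 ± 4.63% to 22.0 ± 0.492%. None of these shares overlapped between the groups (each exact two-sided permutation p = 0.1, 0.113 adjusted). JUND nevertheless remained the first of the 3 by mean level in hypoxia, with 52.1 ± 5.05 RPKM beside 48.4 ± 5.20 RPKM for JUNB, whose libraries overlapped those of JUND. The summed level went from 64.2 ± 16.9 to 128.8 ± 11.9 RPKM, a ratio of 2.01, and was above the FOS family sum in both conditions.

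ATF3, a repressor or activator depending on its partner, lies at chr1:212738676-212794119 on the plus strand. It had 14.0, 12.7 and 20.4 CPM in normoxia and 47.8, 50.5 and 48.2 CPM in hypoxia. The hypoxia libraries were nearly equal, and none of them overlapped the normoxia libraries. ATF3 rose by 1.64 on the log2 scale (SE 0.17, edgeR adjusted p = 2.08e-04). ATF4, a stress response factor known to induce ATF3, and DDIT3, another stress response factor, rose as well. DDIT3 rose by 2.71 on the log2 scale (13.1 ± 3.22 to 85.3 ± 15.7 CPM, edgeR adjusted p = 7.04e-05) and ATF4 by 0.60 (222.0 ± 17.6 to 336.2 ± 26.05 CPM, edgeR adjusted p = 0.00105). The 1 window searched for ATF3 holds both an ATF4-type element and a cAMP response element, as shown above. Whether ATF4 or DDIT3 acted on ATF3 in these cells was not tested.

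EGR1, which shares the serum response with FOS, did not pass the test. The gene lies at chr5:137801181-137805004 on the plus strand. It had 28, 51 and 69 counts in normoxia and 61, 46 and 269 in hypoxia, that is 0.709, 1.37 and 2.23 CPM against 1.51, 1.26 and 2.94 CPM. The groups overlapped, and hypoxia replicate 2 was slightly below normoxia replicate 2. The log2-fold change was 0.45 with an interval from -0.61 to 1.51 (edgeR adjusted p = 0.420), which still holds a change of the size seen for FOSL2. It was -0.04 without hypoxia replicate 3. In the same libraries, the log2 ratio of FOS to EGR1 counts was 0.05, -0.06 and 1.40 in normoxia and 3.97, 4.05 and 3.19 in hypoxia, a difference of 3.27 with no overlap (exact two-sided permutation p = 0.1, also after adjustment over the 4 ratios compared, which were chosen after their values were seen). FOS and EGR1 had similar counts in normoxia replicates 1 and 2 and not in the hypoxia libraries. NAB1 and NAB2 encode corepressors that bind EGR1, and NAB2 is itself known as an EGR1 target. NAB1 had a log2-fold change of 0.27 (edgeR adjusted p = 0.0177), and NAB2 one of 0.04 (edgeR adjusted p = 0.745).

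IER3 was the most abundant of the 10 genes. It lies at chr6:30710976-30712327 on the minus strand, and the deposited annotation also lists it on 5 alternative haplotype sequences, so its count depends on how reads with several matches were treated. GENCODE places IER3-AS1 and HCG20 on the other strand over 440 and 85 of its exon bases. Its levels were 316.5, 331.7 and 600.0 CPM in normoxia and 475.5, 442.8 and 578.9 CPM in hypoxia. Normoxia replicate 3 was the highest of all 6 libraries. The log2-fold change was 0.26 (95% interval -0.29 to 0.82, edgeR adjusted p = 0.372), and 0.32 with the replicate block (edgeR adjusted p = 0.0293). Without normoxia replicate 3 it was 0.62 and passed the test. Leaving out that library alone gave 8 of the 10 genes called higher, with JUND, IER3 and FOSL1 added to the 5, beside 28.7% of all genes tested. Without replicate 3 in both conditions, 7 were called, beside 36.4%, and FOSL1 was too low to test.

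Per exon length, the 10 genes spanned a wide range of levels. In normoxia the order was IER3 (335.5 ± 128.6 RPKM), JUND (39.1 ± 9.56), JUNB (16.2 ± 1.97), JUN (8.89 ± 5.50), FOSL2 (7.34 ± 1.81), ATF3 (6.17 ± 1.62), FOS (1.23 ± 1.31), EGR1 (0.458 ± 0.243), FOSB (0.264 ± 0.0405) and FOSL1 (0.149 ± 0.207). The libraries of JUNB and JUN, JUN and FOSL2, and FOSL2 and ATF3 overlapped, as did those of neighbours from FOS down to FOSL1, so these neighbours were not separated. In hypoxia the order was IER3 (402.5 ± 57.3 RPKM), JUND, JUNB, JUN (28.4 ± 2.06), ATF3 (19.2 ± 0.567), FOSL2 (14.0 ± 1.12), FOS (11.01 ± 1.40), EGR1 (0.607 ± 0.290), FOSB (0.317 ± 0.0621) and FOSL1 (0.284 ± 0.262). Only JUND and JUNB, and FOSB and FOSL1, overlapped as neighbours there. ATF3 stood above FOSL2 in hypoxia and below it in normoxia. FOS, whose libraries overlapped those of EGR1 in normoxia, lay in hypoxia next to FOSL2 and apart from EGR1.

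**Figure D3:**
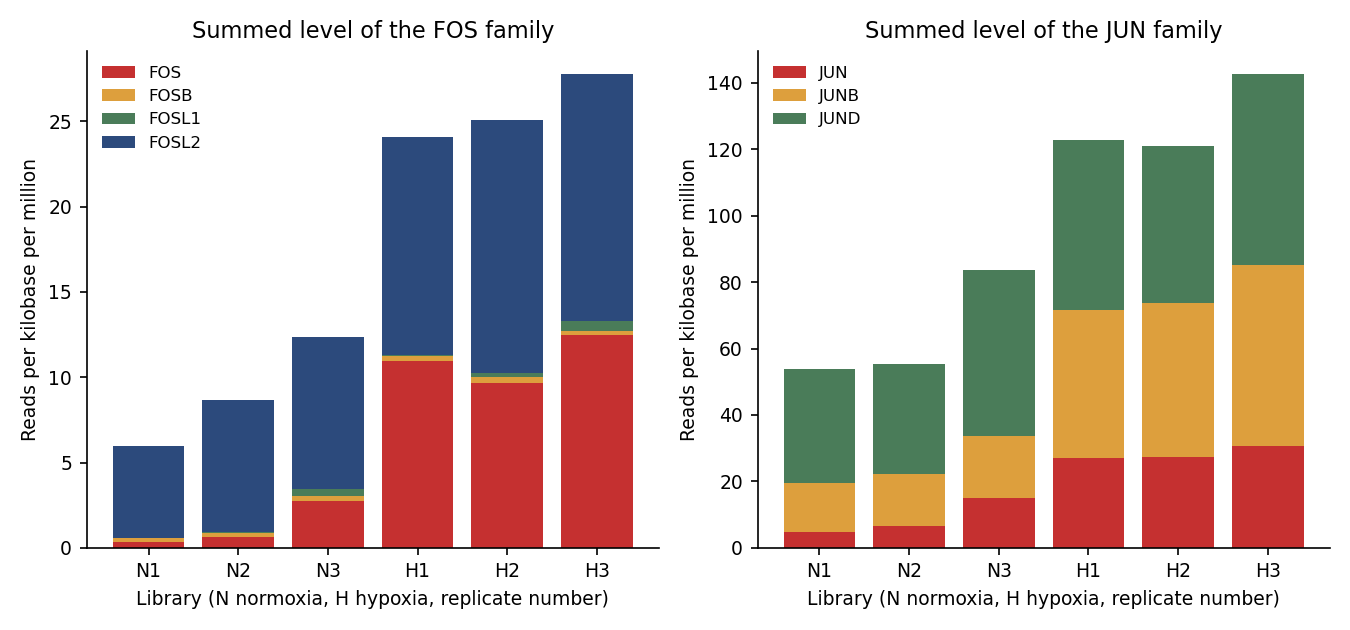
Levels per exon length (RPKM) of the FOS family and JUN family genes in each of the 6 libraries, stacked from 0, so that bar height is the family sum. The mean share of FOS in its family bar is 11.6% in normoxia and 42.9% in hypoxia, and that of JUND in its bar is 61.1% and 40.4%.

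Other genes of the AP-1 system were taken from lists by role. Of 14 further bZIP partners, 11 were called higher and 2 lower, with a median log2-fold change of 0.76. MAFF, a small MAF protein that lacks an activation domain, rose by 1.85 on the log2 scale (2.43 ± 0.124 to 8.70 ± 2.31 CPM). MAFA fell by 0.76 on the log2 scale.

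Of 32 other immediate early genes, 29 could be tested, of which 17 were called higher and 3 lower, with a median log2-fold change of 0.85. With the replicate block 23 were called higher and 3 lower. NR4A2, an orphan nuclear receptor, rose by 1.88 on the log2 scale, from 0.876 ± 0.345 to 3.22 ± 0.476 CPM. KLF4, an epithelial zinc finger factor, rose by 1.83, from 6.18 ± 0.941 to 22.0 ± 2.65 CPM. RHOB, a small GTPase, fell by 0.88 on the log2 scale, from 317.6 ± 42.4 to 172.6 ± 12.6 CPM. The other genes called lower were SGK1, a kinase, and EGR3, a relative of EGR1, both named after their values were seen. EGR3 had 242, 220 and 14 counts in normoxia and 34, 24 and 13 in hypoxia, and its groups overlapped because normoxia replicate 3 was low. Its log2-fold change was -3.06 (edgeR adjusted p = 0.0217). Normoxia replicate 3 was thus the lowest normoxia library for EGR3 and the highest for EGR1. SRF, which encodes the factor that binds the CArG box, had a log2-fold change of -0.02 (edgeR adjusted p = 0.899).

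Of 18 genes commonly described as AP-1 targets, 13 could be tested, and 4 were called higher and 2 lower, with a median log2-fold change of 0.43. The share called higher, 30.8%, was near the 30.4% of all genes tested. The share called lower was 15.4%, beside 29.1%. With the replicate block 6 were called higher and 2 lower. TIMP1, an inhibitor of matrix metalloproteinases, rose by 1.76 on the log2 scale, from 2.84 ± 0.656 to 9.64 ± 0.319 CPM. The other genes called higher, MMP13, MMP9 and CXCL8, had low counts and were named after their values were seen. MMP13, a collagenase, had 1, 0 and 2 counts in normoxia and 136, 92 and 251 in hypoxia. HMGA1, a chromatin protein, fell by 0.95 on the log2 scale, and CCND1, which encodes cyclin D1, by 0.45. CCND1 no longer passed with upper-quartile factors (-0.30, edgeR adjusted p = 0.0710), nor in 5 of the fits that left out libraries, where the adjusted p ran from 0.0502 to 0.164. The shares of these lists called higher or lower are to be read beside the 30.4% and 29.1% of all genes tested. Counts with the replicate block are to be read beside 36.6% and 35.2%.

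**Figure D4:**
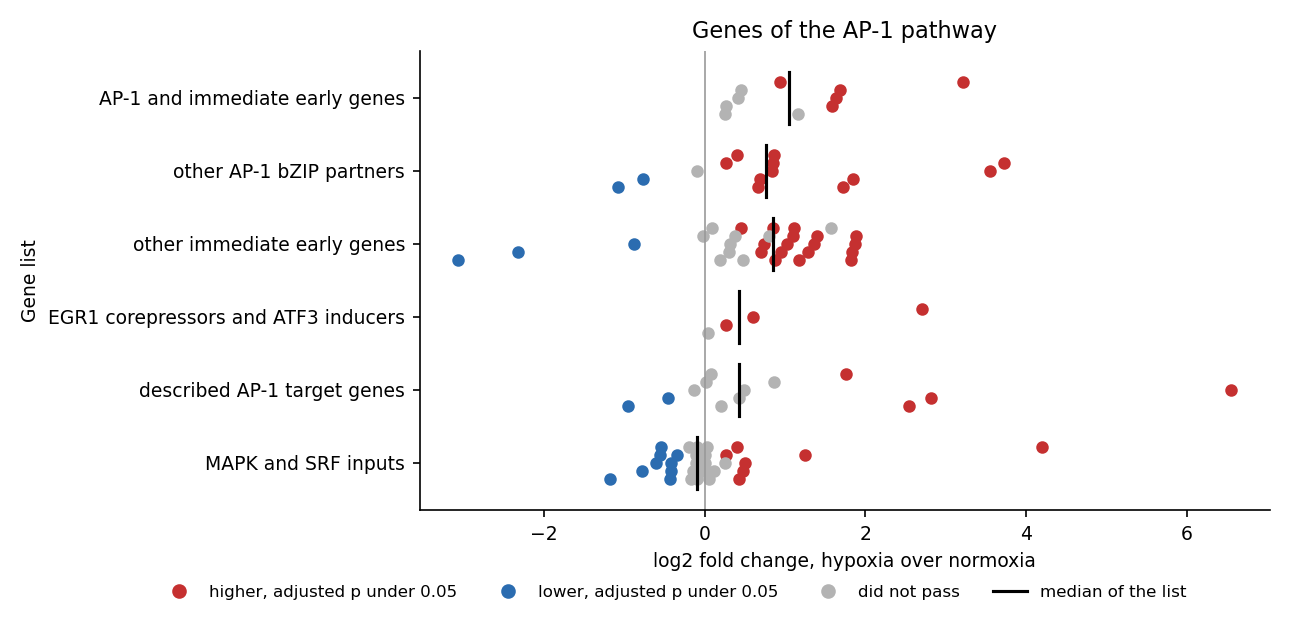
Log2-fold change in hypoxia over normoxia of each tested gene of the 6 lists; each point is a gene, coloured by its call, and the black line is the median of the list. The medians are 1.05 for the 10 genes, 0.76 for the bZIP partners and 0.85 for the other immediate early genes.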

How the data were processed

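The authors prepared stranded mRNA libraries, aligned the reads to hg19 (GRCh37) with STAR 2.5.2a and deposited raw counts per RefSeq gene from featureCounts 1.5.1, with FastQC 0.11.5 also named in the submitters' processing notes. How strand and multiply matching reads were handled is not given in the sources used here. From these counts, genes were kept by edgeR's filterByExpr (minimum count 10, minimum total 15) and 15657 were tested with edgeR 4.0.16 (R 4.3.3; quasi-likelihood test, TMM normalization, condition as the only term, all 6 libraries, Benjamini-Hochberg adjustment at 0.05). CPM are TMM-normalized. RPKM divides CPM by the exon union on 1 chromosome. Totals ran from 32989104 to 89883409 counts.

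The 10 genes, the lists and the tests were chosen with earlier results of these data known. Beside the 10 genes, each list contributed at most the 2 largest increases and 2 largest decreases among genes called, changed the same way in all 3 pairs, with a mean of at least 100 counts. 1 gene that met this rule is not reported here. Same-numbered libraries departed in like manner from their group means (correlations across genes of 0.338, 0.422 and 0.575). Because replicate 3 stood apart in both conditions, such values can arise however replicates 1 and 2 are matched. They cannot show which of these libraries belong together, so the pairing by number was assumed. Blocked values are given where they change a call among the 10 genes or the count of a list reported here. The paper calls the hypoxia and normoxia samples paired without naming the pairs, which were taken from the labels' numbers. Alternatives were the replicate block, edgeR's exact test, DESeq2 1.42.0, RLE and upper-quartile factors, no filter, and leaving out each library or each replicate number. The scripts were tested on simulated data.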

Additional observations from a re-analysis of the deposited data

How the results depend on the processing

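FOS, FOSL2, JUN, JUNB and ATF3 kept their direction and passed the test in all 15 alternatives. JUND passed with the replicate block (0.43), with edgeR's exact test (0.41), with upper-quartile factors (0.58) and without the filter on low counts (0.41), and ranged from 0.28 to 0.62 when libraries were left out. IER3 passed with the replicate block (0.32) and ranged from 0.085 to 0.62 when libraries were left out. The block changed no other call among the 10 genes. FOSL1 ranged from -0.039 (without hypoxia replicate 3) to 3.33 (without normoxia replicate 3), and could not be tested without both replicate 3 libraries. EGR1 ranged from -0.039 (without hypoxia replicate 3) to 0.91 (without normoxia replicate 3). The cause was not tested.

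Leaving out libraries gave 5 to 8 of the 10 genes called higher, and over all genes 2648 to 5751 called higher and 2191 to 5506 lower, with the lowest numbers without replicate 1, where each condition had 2 libraries. In those fits, 7 to 10 bZIP partners were called higher and 0 to 2 lower, 1 to 2 described AP-1 targets were called lower, and 2 to 7 MAPK and SRF inputs were called higher and 3 to 11 lower. Upper-quartile factors gave 1 described AP-1 target called lower. Of the other named genes, MAFA and RPS6KA4 lost their calls in 1 alternative each, BRAF in 4 and CCND1 in 6. The low counts of FOSL1, FOSB and EGR1 limit what can be said of them.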

Other observations

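Of 31 MAP kinase pathway and SRF input genes, 30 could be tested, 7 were called higher and 9 lower (8 and 11 with the replicate block), and the median log2-fold change was -0.09. The shares without the block, 23.3% and 30.0%, were near the 30.4% and 29.1% of all genes tested. With the block, 36.6% of all genes were called higher and 35.2% lower. ELK3, a ternary complex factor that binds beside SRF, rose by 1.25 on the log2 scale, from 3.57 ± 0.660 to 8.52 ± 0.690 CPM. BRAF, a kinase at the top of the ERK cascade, rose by 0.51. MAP2K6, which activates p38 kinases, fell by 1.17 on the log2 scale, from 13.3 ± 0.497 to 5.96 ± 1.04 CPM, and RPS6KA4, a kinase that phosphorylates CREB and histone H3, fell by 0.78. These are RNA levels, and kinase activity was not measured.

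Among 12664 genes with enough counts, those whose levels over the 6 libraries were most like FOS, by the root mean square difference of centred log2(CPM + 0.1) values, were TGFBR2 (0.491), TGM2 (0.526) and FLNC (0.528). TGFBR2 had 0.101, 0.134 and 0.355 CPM in normoxia and 3.31, 3.14 and 3.80 CPM in hypoxia. For JUN the closest were ITPRIP (0.161), ELF3 (0.231) and AKR1C3 (0.253). ELF3, an epithelial ETS factor, had 53.4, 67.6 and 100.4 CPM in normoxia and 255.3, 249.8 and 258.4 CPM in hypoxia. DUSP1, an immediate early phosphatase, had a normoxia replicate 3 level of 18.1 CPM, above all other libraries, which ran from 4.10 to 12.4 CPM.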
